A study of Mus musculus with 48 samples.

Results

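Interleukin 3 (IL-3) receptor and JAK-STAT signalling genes were followed in Ba/F3 cells, an established mouse haematopoietic line that grows only when IL-3 is present. The set holds 10 of the 55487 genes of the count table, taken by symbol: the receptor subunits Il3ra, Csf2rb, Csf2rb2 and Csf2ra, the kinases Jak1 and Jak2, the transcription factors Stat5a, Stat5b and Stat3, and the phosphatase gene Ptpn6. Of these, 9 passed the filter on low counts at each level of measurement, and Csf2ra did not.

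As background, IL-3 binds an alpha chain encoded by Il3ra, which pairs with a signalling beta chain. Mouse cells have a pair of such beta chains: Csf2rb is shared with the receptors for IL-5 and granulocyte-macrophage colony-stimulating factor (GM-CSF), and Csf2rb2 serves IL-3 alone. JAK2 sits on the beta chain and phosphorylates it and STAT5A and STAT5B, which then enter the nucleus and switch on survival and cytokine-response genes. SHP-1, the product of Ptpn6, removes phosphate from the receptor and from JAK2, and the CIS and SOCS proteins, which STAT5 induces, dampen the receptor further.

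The series compared 8 genotypes of ribosomal protein genes with 3 clones each (24 clones in all), made by CRISPR-Cas9 editing. Beside unedited WT there were clones with 1 allele of a large-subunit gene lost (Rpl5+/-, Rpl11+/- or Rpl22+/-), clones without Rpl22 (Rpl22-/-), and clones with a point mutation: R98S in Rpl10, or, in the small-subunit gene Rps15, either P131S or H137Y. The Rpl10 R98S and Rps15 H137Y clones are labelled with the mutation on both alleles; the Rps15 P131S clones are so labelled for their footprint libraries, while the RNA titles name the mutation once. All cells were grown in RPMI-1640 with 10% serum and 1 ng/ml IL-3, and all received 0.1 mg/ml cycloheximide for 1 min before lysis. One lysate per clone gave a poly(A) RNA-seq library and a library of ribosome footprints of 28 to 30 nucleotides, and each clone is thus a cell line of its own rather than a treated culture. The WT samples carry the numbers 1 to 3, with nothing to say how they were separated, so their spread may be smaller than that between edited clones.

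Total counts ran from 13029073 to 38258559 per RNA library and from 15598994 to 72044439 per footprint library, the lowest being the footprints of Rpl22+/- clone 60. Values below are in CPM, the count scaled to a common library size (trimmed mean of M-values), and footprints per RNA is the ratio of the 2 CPM values of a clone. Rpl5 RNA was 1534 to 1589 CPM in the Rpl5+/- clones against 2283 to 2338 in WT, and Rpl11 RNA was 1008 to 1150 in Rpl11+/- against 1665 to 1686. Rpl22 footprints reached 1544 CPM in Rpl22-/- clone 30, against a lowest value of 274 in that genotype and 1429 to 1596 in Rpl22+/-; this library goes against its label, and no member was called in Rpl22-/- with it or without it. Point mutations in Rpl10 and Rps15 cannot be checked from gene counts. Rps15 RNA differed widely between clones of the Rps15 mutants: 907 to 1935 CPM in P131S and 817 to 1829 in H137Y. In WT it was 1433 to 1455 CPM. The part of this spread in the changes of the members was not tested. Ba/F3 is known as a pro-B line, yet 10 of 13 pro-B markers (among them Pax5, Ebf1 and Il7r) stayed under 1 CPM in all 24 RNA libraries, while Ptprc was at 167 to 302 CPM. Cd79b was at 3.35 to 9.91 CPM, and Cd79a ran from 0 to 9.81 CPM. Of 8 mast cell and basophil markers 4 stayed under 1 CPM, with Kit at 0. Of the rest, Gata2 was at 303 to 513 CPM and Cpa3 at 7.77 to 239 CPM, while Mcpt8 reached 41.1 CPM and Hdc 1.86 CPM. In bulk samples, fewer cells of a type and less RNA per cell cannot be told apart.

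The beta-subunit gene Csf2rb2 had the only start-site window among the members with a match to a STAT motif, so that window is shown. RefSeq promoter windows (GRCm38.p6) were found for 9 of the 10 members, in 11 windows, Csf2rb being the one without. The 250 bases before the start of Csf2rb2, chr15:78305722-78305971 on the minus strand, are printed 5′ to 3′. Capitals mark, from left to right, a PU.1-type motif (GAGGAA, here on the reverse strand), a GATA-type motif (TGATAA, also reverse) and a STAT-type motif (TTCNNNGAA); the 3 matches do not overlap.
Csf2rb2: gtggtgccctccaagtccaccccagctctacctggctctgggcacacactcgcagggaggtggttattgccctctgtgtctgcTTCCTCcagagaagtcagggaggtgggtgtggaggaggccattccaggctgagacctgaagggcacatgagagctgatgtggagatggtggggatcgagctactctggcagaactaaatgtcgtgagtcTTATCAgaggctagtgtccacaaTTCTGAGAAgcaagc
The STAT match lies 15 to 7 bases before the start, the GATA match 38 to 33 and the PU.1 match 167 to 162. Searched on both strands, the STAT letters occur in 7.02% of 32851 windows of this length, the PU.1 letters in 23.3% and the GATA letters in 7.94%. Stat5a and Csf2ra held the PU.1 letters only. A match of letters is a description of the window and no measurement of binding.

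Calls on the members lay mainly in the Rps15 mutants. By size, some changes elsewhere were as large as in H137Y. Jak2 footprints changed by -1.61 in Rpl10 R98S and by -1.49 in Rpl22+/-, against -1.35 in H137Y. Csf2rb footprints changed by 0.66 in Rpl5+/-, against 0.62 in H137Y. In Rps15 P131S, Csf2rb and Csf2rb2 RNA rose and Jak1, Stat5b, Stat3 and Ptpn6 RNA fell; Jak2 footprints fell with no call on Jak2 RNA. In Rps15 H137Y, Csf2rb and Csf2rb2 RNA rose and Jak1 RNA fell, and Jak2 footprints fell again. The count was 6 of 9 members called at the RNA level in Rps15 P131S (2 higher, 4 lower; edgeR quasi-likelihood test, adjusted p under 0.05), beside 47% of the 12814 genes tested, of which 23.7% of genes were higher and 23.4% lower. In Rps15 H137Y it was 3 of 9 (2 higher, 1 lower), beside 41% of genes called (21% higher, 20% lower). With 9 members tested and so many genes called, these counts are not read as a result about the members. Their median log2 change was -0.15 in P131S (all genes -0.01) and 0.04 in H137Y (all genes 0.01).

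Between the 2 Rps15 mutants, 4 of 9 members differed in RNA (P131S higher for Csf2rb, lower for Stat5b, Stat3 and Ptpn6), beside 25.2% of genes (12.6% each way). In the other 6 RNA comparisons 0 members were called by edgeR, against a background of 1.04% in Rpl5+/-, 11.8% in Rpl11+/- (5.73% higher, 6.05% lower), 3.9% in Rpl22+/- (1.08% and 2.82%), 5.27% in Rpl22-/- (1.47% and 3.8%), 12.9% in Rpl10 R98S (6.82% and 6.03%) and 0.0078% between the Rpl22 genotypes. In that order, 2, 2, 0, 1, 3 and 0 members had an unadjusted p under 0.05. limma voom also called 0 in each, and the DESeq2 test called 1 in Rpl10 R98S (Stat5b, log2 -0.19, adjusted p 0.0404) and 0 in the others. These fits were shared by all genotypes. An edgeR fit of only the 2 genotypes compared called Csf2rb, Csf2rb2, Jak1 and Stat3 in Rpl5+/-, beside 15.8% of all genes. In Rpl10 R98S it called Jak2, Stat5b and Stat3, beside 35.4%.

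In footprints, 5 of 9 members were called in Rps15 P131S (Csf2rb and Csf2rb2 higher; Jak2, Stat5b and Ptpn6 lower), beside 16.7% of 16217 genes (8.42% higher, 8.28% lower). There were 3 of 9 in Rps15 H137Y (Csf2rb and Csf2rb2 higher, Jak2 lower), beside 11.7% (5.22% and 6.44%), and 1 of 9 in Rpl10 R98S (Jak2, lower), beside 1.62% (0.814% and 0.808%). Between the Rps15 mutants 2 members were called, beside 4.17%. edgeR called 0 in Rpl5+/- (background 0.0123%), Rpl11+/- (0.074%), Rpl22+/- (0.253%), Rpl22-/- (0.105%) and Rpl22-/- against Rpl22+/- (0.00617%), where 2, 1, 4, 1 and 3 members had an unadjusted p under 0.05. In these 5, limma voom called 0, and the DESeq2 test called 2 in Rpl22+/- and 1 between the Rpl22 genotypes. In footprints per RNA, tested as the interaction of assay and genotype over all 48 libraries, Jak2 alone was called, in P131S (background 3.14% of 16568 genes, 0.881% higher and 2.26% lower) and in H137Y (2.76%, 0.61% higher and 2.15% lower). edgeR called 0 members in Rpl5+/- and Rpl11+/- (background 0%), Rpl22+/- (0.00604%), Rpl22-/- (0.0121%), Rpl10 R98S (0.217%), between the Rpl22 genotypes (0%) and between the Rps15 mutants (0.682%). In that order 0, 1, 2, 1, 1, 1 and 0 members had an unadjusted p under 0.05. limma voom called 1 in Rpl10 R98S, and DESeq2 1 in Rpl22+/- and 1 in Rpl10 R98S, each of them Jak2.

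**Figure D1:**
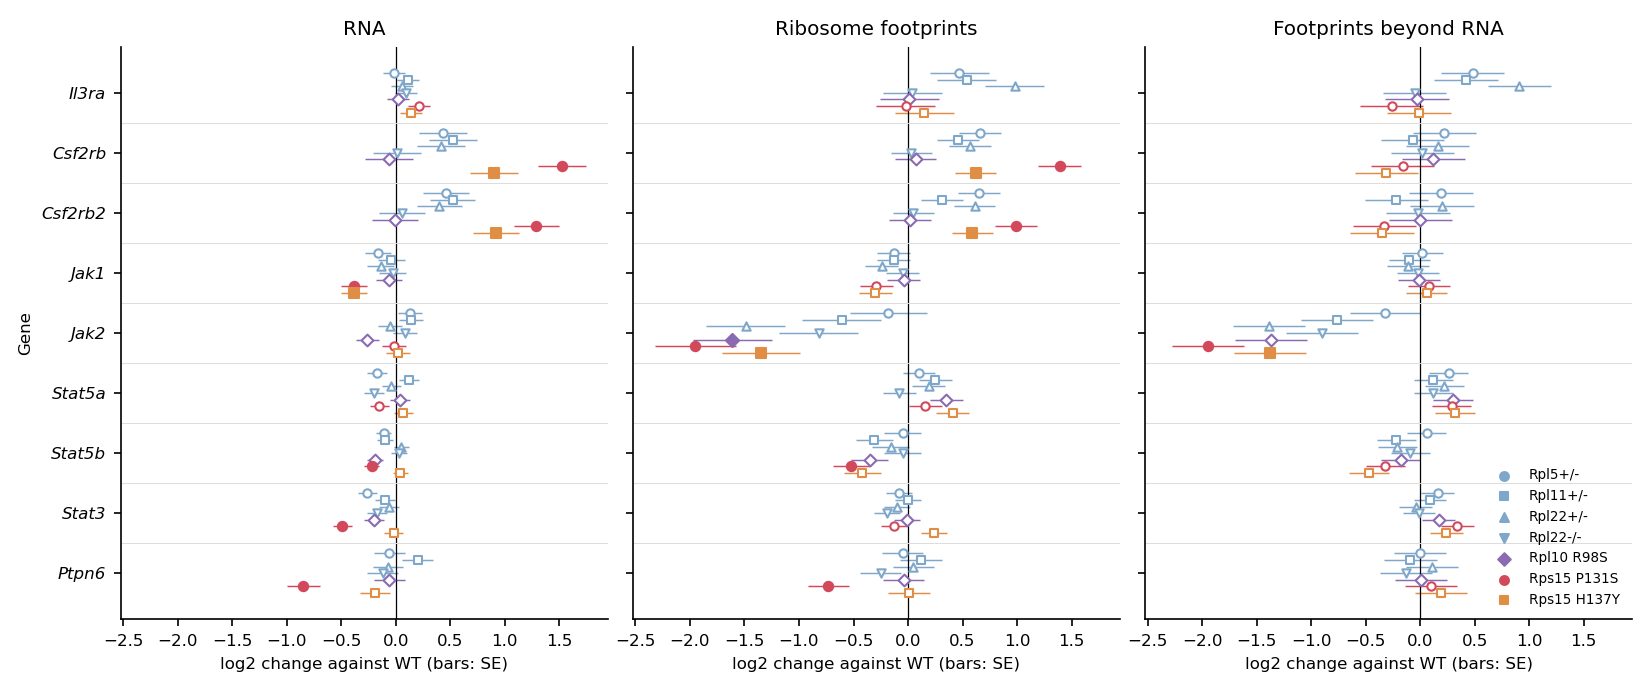
Log2 change from WT (x axis, ± SE) of the 9 tested members in each of 7 genotypes, for RNA, footprints and footprints per RNA; filled points have an adjusted p under 0.05. Filled points lie mostly in the Rps15 genotypes, with Csf2rb and Csf2rb2 to the right of 0 and Jak2 footprints furthest to the left, at -1.95 in P131S.

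Csf2rb (ENSMUSG00000071713, chromosome 15, 78325800 to 78351001, GRCm38) encodes the shared beta chain. Its RNA was 479, 577 and 534 CPM in WT samples 1, 2 and 3, and 1530, 1324 and 1720 CPM in Rps15 P131S clones 20, 24 and 63. In Rps15 H137Y it was 774, 799 and 1403 CPM in clones 16, 2 and 6. All 6 Rps15 clones lay above all WT samples, and H137Y clone 6 reached the P131S range while clones 16 and 2 did not. The RNA rose by 1.52 log2 units in P131S (SE 0.22, 2.88-fold, adjusted p 3.01e-05) and by 0.90 in H137Y (SE 0.22, 1.87-fold, adjusted p 0.00305). P131S was above H137Y by 0.62 (SE 0.22, adjusted p 0.0444), but the clones overlapped and this call was lost in 7 of 12 alternatives (adjusted p 0.0881 to 0.183), among them leaving out H137Y clone 16 or 2 or P131S clone 20 or 63.

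Csf2rb footprints followed its RNA. They were 119, 151 and 157 CPM in WT, 358.5, 314 and 442 in the P131S clones, and 208, 169 and 278 in the H137Y clones in the same order, again with no overlap between WT and either mutant. The change was 1.39 (SE 0.20, 2.61-fold, adjusted p 0.000137) in P131S, and 0.62 (SE 0.19, 1.54-fold, adjusted p 0.0425) in H137Y. The H137Y call was lost in 5 of 6 fits without 1 clone (without WT 1, 2 or 3 or H137Y 16 or 6; adjusted p 0.0656 to 0.222), while the P131S call was kept in each. P131S exceeded H137Y by 0.77 (SE 0.19, adjusted p 0.0284) with no overlap of clones, a call lost without P131S 20 or 63 or H137Y 16 or 2 (adjusted p 0.0614 to 0.112). Footprints per RNA were 0.249, 0.261 and 0.293 in WT, and their change was -0.16 in P131S (adjusted p 0.991) and -0.31 in H137Y (adjusted p 0.794), neither called.

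Elsewhere Csf2rb levels were near or moderately above WT, without a call in the fit shared by all genotypes. RNA was 697, 736 and 713 CPM in Rpl5+/- clones 68, 76 and 80 (log2 0.43, adjusted p 0.37) and 649, 837 and 630 CPM in Rpl22+/- clones 13, 16 and 60 (0.41, adjusted p 0.385). In Rpl11+/- it was 1058 CPM in clone 22 but 591 and 624 in clones 406 and 414 (0.52, adjusted p 0.133). All 9 of these clones lay above WT. With only Rpl5+/- and WT fitted, the RNA change of 0.43 was called (edgeR adjusted p 0.00141). Rpl22-/- clones ran from 449.5 to 580.4 CPM and Rpl10 R98S clones from 493 to 527, both within or beside the WT range. Ordered by mean RNA, Rpl10 R98S was lowest and Rps15 P131S highest. Csf2rb footprints were 234, 248 and 191 CPM in the Rpl5+/- clones in the same order (log2 0.66, adjusted p 0.923). They were 192, 242 and 201.5 CPM in Rpl22+/- (0.57, adjusted p 0.22). Each of these clones lay above WT, and both changes were near the 0.62 called in H137Y. The footprint change was 0.46 in Rpl11+/- (adjusted p 0.427), 0.07 in Rpl10 R98S and 0.03 in Rpl22-/-.

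Csf2rb2 (ENSMUSG00000071714, chromosome 15, 78282507 to 78305721) encodes the beta chain used by IL-3 alone and lies beside Csf2rb. WT RNA was 369, 435 and 434 CPM. The P131S clones 20, 24 and 63 had 1068, 877 and 1092 CPM, and the H137Y clones 16, 2 and 6 had 619.9, 653 and 1073 CPM. As for Csf2rb, all 6 clones were above WT and clone 6 stood apart from the other H137Y clones. The change in RNA was 1.29 (SE 0.21, 2.45-fold, adjusted p 0.0001) in P131S and 0.92 (SE 0.21, 1.90-fold, adjusted p 0.00211) in H137Y, both kept in every fit without 1 clone. The difference between the mutants, 0.37, had an adjusted p of 0.218, and without H137Y clone 6 it was 0.67 (adjusted p 0.0204).

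Footprints of Csf2rb2 were 114, 128 and 151 CPM in WT, 287.5, 236 and 256 in P131S and 163.5, 179 and 249 in H137Y. Both mutants were above WT with no overlap. The change was 0.99 (SE 0.19, adjusted p 0.0014) in P131S and 0.59 (SE 0.19, adjusted p 0.0497) in H137Y. The H137Y call was lost without WT 1, 2 or 3 or H137Y 2 or 6 (adjusted p 0.0523 to 0.241), and when the shallow Rpl22+/- clone 60 was dropped from the shared fit (adjusted p 0.0506). In Rpl11+/-, RNA was 857 CPM in clone 22 against 453 and 459 in clones 406 and 414. The change of 0.52 there had an adjusted p of 0.122, and 0.0491 without clone 414. Csf2rb2 RNA changed by 0.46 in Rpl5+/- (adjusted p 0.321, or 0.00083 with only Rpl5+/- and WT fitted) and by 0.40 in Rpl22+/- (adjusted p 0.383). Its footprints changed by 0.65 in Rpl5+/- (adjusted p 0.923) and by 0.61 in Rpl22+/- (adjusted p 0.187). These footprint changes were near the 0.59 of H137Y, and each clone of both genotypes lay above WT at both levels.

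**Figure D2:**
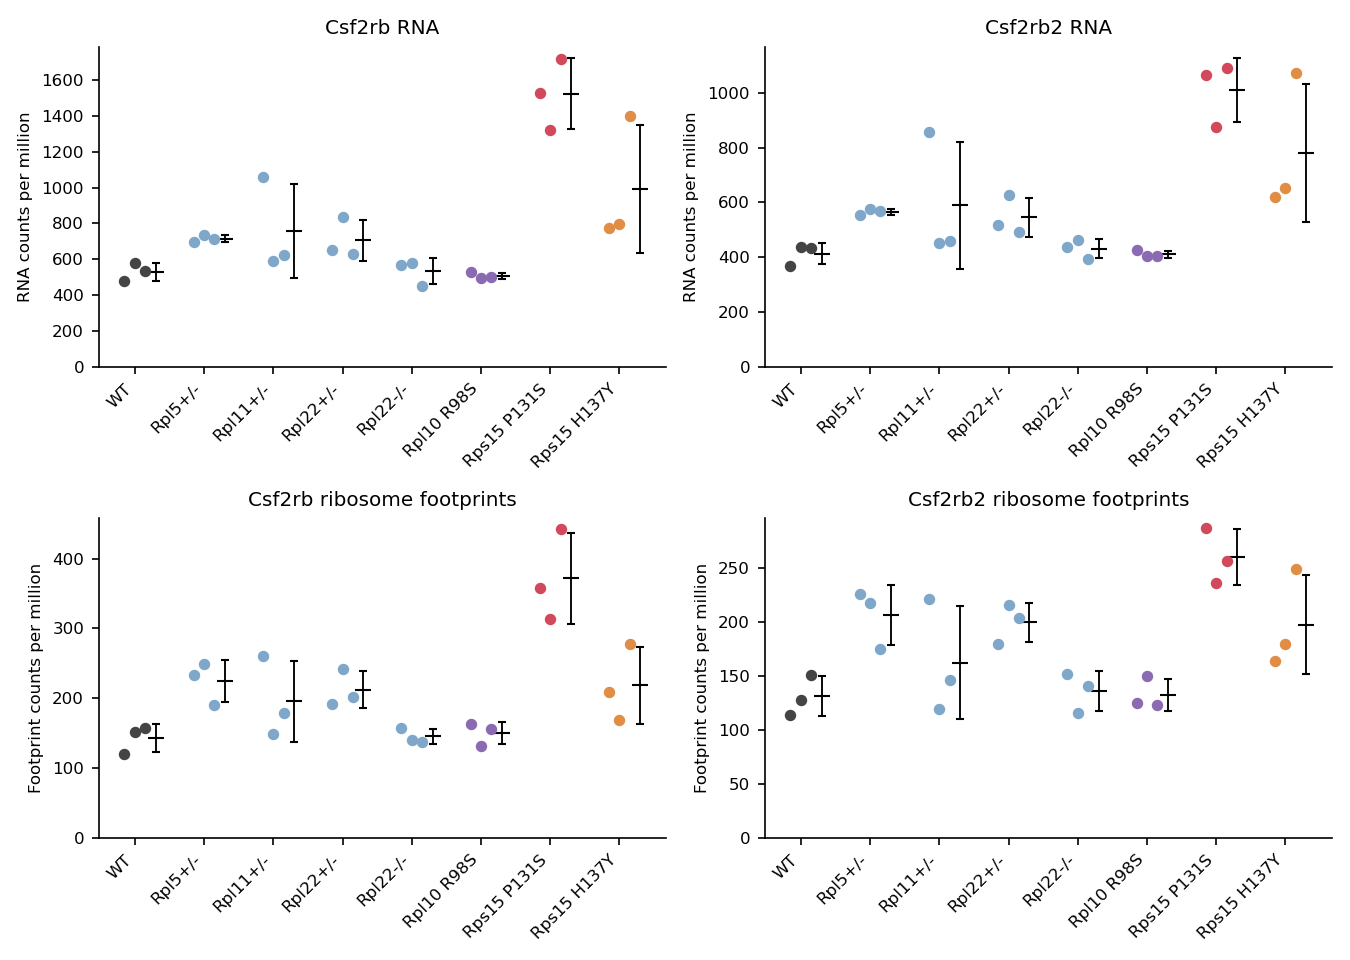
RNA and footprint CPM (y axis) of Csf2rb and Csf2rb2 in each clone of the 8 genotypes (points), with mean ± SD over 3 clones. Rps15 P131S, Rps15 H137Y, Rpl5+/- and Rpl22+/- clones lie above WT in each panel. H137Y clone 6, at 1403 CPM of Csf2rb RNA, is the highest of its genotype.

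The 2 beta genes are near-identical copies. Csf2rb counts were not whole numbers in 24 of 24 RNA libraries, and likewise those of Csf2rb2, as when reads are divided between copies. Their separate levels are therefore uncertain. Summed over both genes, the P131S and H137Y calls against WT were kept in RNA and in footprints, while the P131S and H137Y difference lost its call (RNA 0.52, adjusted p 0.0881; footprints 0.60, adjusted p 0.0649). Over the 24 RNA libraries the gene most like Csf2rb was Csf2rb2 (Pearson r 0.99 of log2 CPM), followed by Shank2 (0.932) and Cyp11a1 (0.926); for Csf2rb2, Arsb followed Shank2 (0.905). These correlations are descriptions over libraries that share genotypes and depth, and the counts of Csf2rb and Csf2rb2 may not be separate.

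A list of granulocyte and monocyte markers moved in the same genotypes as the beta subunits. Its summed RNA was 104.5, 177 and 70.7 CPM in WT and 536.5, 1225 and 2559 CPM in P131S clones 20, 24 and 63. In H137Y clones 16, 2 and 6 it was 827, 516 and 2633 CPM. The largest sums were mostly S100a8 (2.08 to 982 CPM over the 24 libraries) and S100a9 (2.54 to 1456 CPM). The next highest marker, Cebpe, reached 147 CPM, so the sums do not show a shift of the whole list. H137Y clone 6 was high both in this list and in Csf2rb, but P131S clone 20 had the lowest sum of its genotype with 1530 CPM of Csf2rb, above clone 24 (1324 CPM). Rpl11+/- clone 22, with the highest Csf2rb of its genotype, had the lowest sum there, 94.9 CPM. Of the 11 listed markers, 9 were tested, and 6 rose in P131S and 8 in H137Y. Cebpa was at 0 and Elane at or under 0.201 CPM in all 24 libraries. Of all genes, 23.7% were higher and 23.4% lower in P131S, 21% and 20% in H137Y, and 6.03% lower in Rpl10 R98S. The list summed to 50.4 to 431 CPM over the other 5 genotypes, with its highest value in Rpl5+/- clone 76. Markers of other cell types moved as well. Of 4 mast cell and basophil markers tested, Cpa3 and Mcpt8 rose and Gata2 fell in P131S, and Mcpt8 rose and Gata2 fell in H137Y. Of 4 erythroid markers tested, Epor, Gata1 and Klf1 fell in P131S, whereas Klf1 and Hba-a1 rose in H137Y. Among the pro-B markers 2 were tested; Cd79b fell in P131S and Ptprc fell in H137Y and in Rpl10 R98S, where Gata1 also fell. Of 2 T cell markers tested, Cd3g rose in P131S; that list summed to 13.2 CPM in clone 20 and to 0.152 CPM or less in clones 24 and 63. Where only 2 or 4 markers were tested, these counts are not read as a result about a cell type. The part of these lists in the changes of the members was not tested.

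Il3ra (ENSMUSG00000068758, chromosome 14, 14345912 to 14355493) encodes the IL-3-binding alpha chain, and its RNA stayed in a narrow range. Over the 24 clones it ran from 25.6 to 35.1 CPM, with means from 26.8 in Rpl5+/- to 31.5 in P131S. WT had 28.4, 27.0 and 26.1 CPM and P131S 28.7, 33.2 and 32.7; P131S lay above WT in all 3 clones, but the change of 0.21 (SE 0.10) had an adjusted p of 0.088. So the genes of the beta chains rose by more than 1 log2 unit in P131S while the alpha-chain gene was not called; the difference between those changes was not tested.

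Il3ra footprints spread more widely, from 11.1 to 34.7 CPM. WT had 12.8, 11.1 and 21.0 CPM and Rpl22+/- 34.7, 23.3 and 30.2 CPM, with no overlap. The change of 0.98 (SE 0.27) had an adjusted p of 0.138 by edgeR and 0.0239 by DESeq2. Rpl22-/- clones were at 17.5, 12.5 and 16.0 CPM, in the WT range, and differed from Rpl22+/- by -0.93 (adjusted p 0.179; DESeq2 0.0399). The genes most like Il3ra over the RNA libraries were Eno1 (r 0.802), Ehd1 (0.786) and Eno1b (0.778).

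Csf2ra (ENSMUSG00000059326, chromosome 19, 61217191 to 61228461), the alpha chain for GM-CSF, was at 0 in 22 of 24 RNA libraries and in 21 of 24 footprint libraries. Its counts summed to 2 in RNA and 6 in footprints. A count of 0 allows up to 3 counts, which is 0.0784 to 0.230 CPM in an RNA library and 0.0416 to 0.192 CPM in a footprint library (counting error only). No difference in Csf2ra was detectable at this depth.

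Jak2 (ENSMUSG00000024789, chromosome 19, 29251803 to 29313095), the kinase bound to the beta chain, was the member whose footprints fell without a call on its RNA in the shared fit. Jak2 RNA was 108, 117 and 119.8 CPM in WT, 97.4, 105 and 136.6 in P131S clones 20, 24 and 63, and 115, 108 and 127 in H137Y clones 16, 2 and 6. These ranges overlapped, and the RNA changes were -0.02 (adjusted p 0.897) and 0.02 (adjusted p 0.884). Over all clones Jak2 RNA ran from 94.2 to 146 CPM. Rpl10 R98S clones, at 94.2, 95.9 and 97.9 CPM, lay below WT, with a change of -0.26 (adjusted p 0.135). With only Rpl10 R98S and WT fitted, this RNA change was called (edgeR adjusted p 0.00145).

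Jak2 footprints were 12.02, 12.67 and 11.9 CPM in WT. They were 2.35, 2.11 and 5.01 CPM in P131S, 6.16, 4.80 and 3.40 in H137Y and 4.36, 4.49 and 3.13 in Rpl10 R98S clones A29, A30 and A34. All 9 clones lay below WT. Footprints fell by 1.95 log2 units in P131S (SE 0.37, to 25.9% of WT, adjusted p 0.0011), by 1.35 in H137Y (SE 0.36, to 39.3%, adjusted p 0.0192) and by 1.61 in Rpl10 R98S (SE 0.36, to 32.8%, adjusted p 0.0273). The P131S call was kept in 12 of 12 alternatives. The Rpl10 R98S call was lost in all 6 fits without 1 clone (adjusted p 0.0653 to 0.124), and the H137Y call without H137Y 2 or 6 or WT 2 (adjusted p 0.0557 to 0.0865).

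The remaining genotypes filled the range between. Rpl22+/- clones 13, 16 and 60 had 4.79, 6.34 and 1.71 CPM of Jak2 footprints, the lowest from the shallowest library. Rpl22-/- clones had 6.76, 6.27 and 7.66 CPM, Rpl11+/- clones 8.20, 6.83 and 8.86, and Rpl5+/- clones 9.48, 10.5 and 12.3. Only Rpl5+/- overlapped WT. Every comparison used the same WT samples, so these falls are not independent of each other. The change in Rpl22+/- was -1.49 (adjusted p 0.0924 by edgeR, 0.00404 by DESeq2, 0.0257 without clone 16). It was -0.82 in Rpl22-/- (adjusted p 0.672), -0.61 in Rpl11+/- (adjusted p 0.616) and -0.18 in Rpl5+/- (adjusted p 1.0). By mean footprints the order was P131S, Rpl10 R98S, Rpl22+/-, H137Y, Rpl22-/-, Rpl11+/-, Rpl5+/- and WT; the first 4 overlapped each other, with P131S and H137Y not distinguished (-0.60, adjusted p 0.388).

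Jak2 footprints per RNA gave the same picture. The ratio was 0.112, 0.109 and 0.0993 in WT (mean 0.107 ± 0.0064, SD, n = 3), 0.0241, 0.02 and 0.0367 in P131S and 0.0537, 0.0444 and 0.0267 in H137Y. In Rpl10 R98S it was 0.0462, 0.0469 and 0.0320, and in Rpl22+/- 0.0401, 0.0625 and 0.0152. Every one of these clones was below WT. The interaction test gave -1.95 in P131S (SE 0.33, to 26.0% of WT, adjusted p 0.000554, kept in 13 of 13 alternatives) and -1.38 in H137Y (SE 0.33, to 38.5%, adjusted p 0.0139, lost without H137Y 6 or WT 1, 2 or 3, adjusted p 0.0587 to 0.102). Rpl10 R98S had a like change of -1.37 (SE 0.33) that missed the threshold (adjusted p 0.0658); it was called with clone as replicate block (-1.38, adjusted p 0.0466), by limma voom (0.0118) and by DESeq2 (0.00691). Rpl22+/- had -1.39 (adjusted p 0.128; DESeq2 0.00725; 0.00703 without clone 16).

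Depth bears on these values, since Jak2 had few footprints: 27 to 869 counts per library, with a median of 307.5. The genes most like Jak2 in RNA over the 24 libraries were Alox5ap (r 0.838), Bcl2a1a (0.83) and Ffar2 (0.813).

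**Figure D3:**
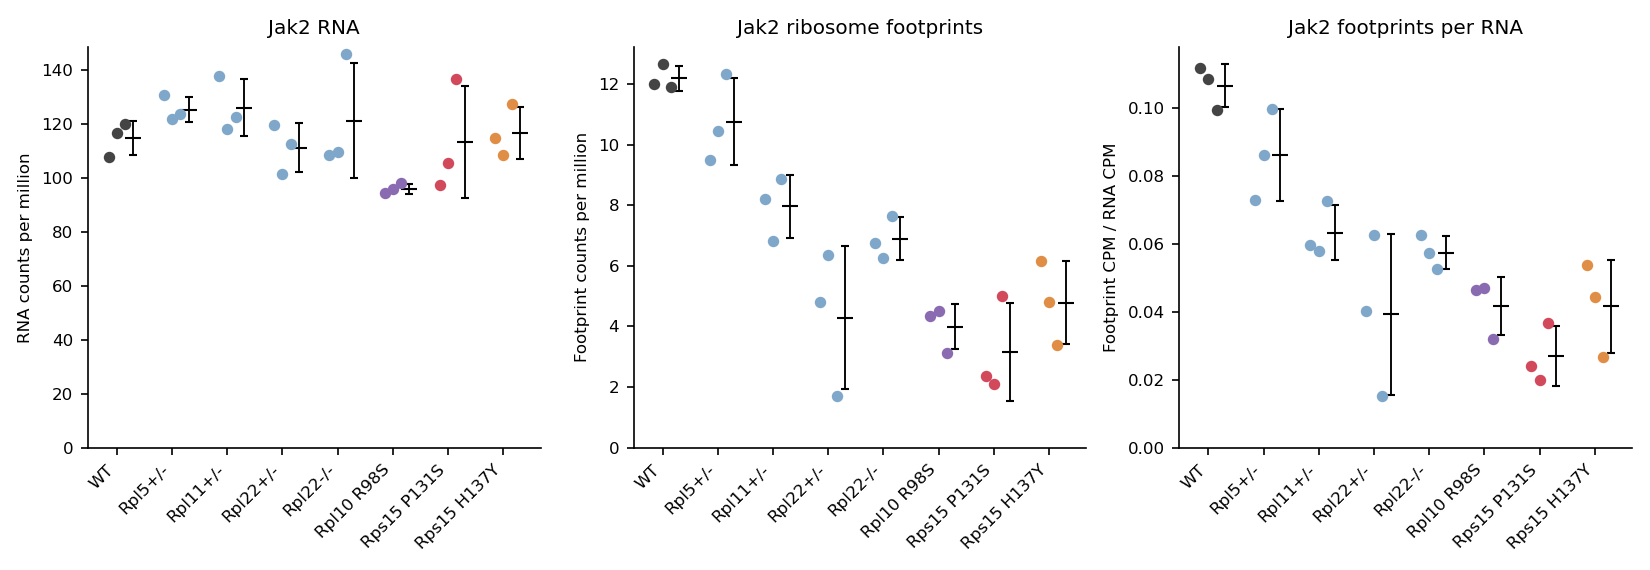
Jak2 RNA (CPM), footprints (CPM) and footprints per RNA (ratio) on the y axes for each clone of the 8 genotypes (points), with mean ± SD over 3 clones. RNA stays between 94.2 and 146 CPM, whereas footprints fall from 11.9 to 12.7 CPM in WT to between 2.11 and 5.01 in P131S.

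Jak1 (ENSMUSG00000028530, chromosome 4, 101151974 to 101265282) encodes a kinase used by many cytokine receptors, and its RNA fell in both Rps15 mutants. WT had 170.3, 184 and 184 CPM, P131S clones 20, 24 and 63 had 123, 155.5 and 135, and H137Y clones 16, 2 and 6 had 130.4, 125 and 158. All 6 mutant clones were below WT. The change was -0.38 in each (SE 0.12; 76.7% of WT, adjusted p 0.011 in P131S; 76.8%, adjusted p 0.0129 in H137Y). The P131S call was lost without clone 20 (-0.31, adjusted p 0.0624) and the H137Y call without clone 16 (-0.34, 0.0535) or clone 2 (-0.31, 0.0645). Footprints, at 167.5 to 287 CPM over all clones, changed by -0.29 (adjusted p 0.205) and -0.30 (adjusted p 0.203), without a call. In the other genotypes mean Jak1 RNA was 160.6 to 175.7 CPM, with the widest spread in Rpl11+/- (137.4, 208 and 179 CPM in clones 22, 406 and 414). Its change of -0.16 in Rpl5+/- was called with only Rpl5+/- and WT fitted (edgeR adjusted p 0.0285), and not in the shared fit.

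Stat5a and Stat5b (ENSMUSG00000004043 and ENSMUSG00000020919) lie side by side on chromosome 11, at 100859351 to 100885169 and 100780731 to 100859004, and encode the 2 STAT5 proteins. Stat5a was called in no genotype by edgeR: RNA ran from 30.0 CPM (Rpl22-/- clone 30) to 48.4, and footprints from 56.8 to 98.1 CPM. Its largest footprint change, 0.41 in H137Y, had an adjusted p of 0.0847 (DESeq2 0.0398). Stat5b RNA was 84.3, 86.3 and 85.8 CPM in WT and 68.0, 79.8 and 72.7 in P131S, all 3 clones below WT. It fell by 0.22 in P131S (SE 0.07, to 86.0% of WT, adjusted p 0.0105), a call lost without P131S clone 20 (-0.17, adjusted p 0.0545). H137Y clones had 87.0, 81.6 and 94.5 CPM, a change of 0.04, and the difference of P131S from H137Y was -0.26 (adjusted p 0.0077; 0.166 with only these 2 genotypes fitted). In Rpl10 R98S, at 76.0, 73.6 and 75.5 CPM, Stat5b RNA was below WT in each clone, but its change of -0.19 had an adjusted p of 0.0667 by edgeR. With only Rpl10 R98S and WT fitted, edgeR called it (adjusted p 0.00438).

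Stat5b footprints were 32.9, 30.4 and 34.1 CPM in WT and 19.7, 22.6 and 25.5 CPM in P131S, with no overlap. They fell by 0.52 (SE 0.17, adjusted p 0.0442), which was lost in all 6 fits without 1 clone (adjusted p 0.0546 to 0.182). H137Y, at 25.0, 26.9 and 20.9 CPM, was also below WT in each clone, with -0.42 and an adjusted p of 0.132. Footprints per RNA of Stat5b changed by -0.47 in H137Y (adjusted p 0.172) and by -0.32 in P131S (adjusted p 0.428), with all 6 clones below WT and no call. Stat5a and Stat5b are close copies as well, and their RNA counts were not whole in 23 of 24 libraries, so their separate levels carry the same uncertainty. The genes most like Stat5a in RNA were Usp20 (r 0.748), Sp110 (0.726) and Pgm2l1 (0.705).

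Stat3 (ENSMUSG00000004040, chromosome 11, 100886806 to 100939594), a STAT best known downstream of the IL-6 family, fell in RNA in P131S. WT had 109, 111 and 117 CPM, and P131S had 67.1, 89.2 and 84.0, all below WT. The change was -0.49 (SE 0.09, 71.4% of WT, adjusted p 0.000268) and was kept in 11 of 11 alternatives. In H137Y, at 114, 95.2 and 121 CPM, it was -0.02, and the mutants differed by -0.46 (adjusted p 0.00122; 0.0928 with only these 2 genotypes fitted). Rpl5+/- clones, at 96.5, 90.8 and 94.0 CPM, and Rpl10 R98S clones, at 98.7, 97.9 and 96.1 CPM, also lay below WT, with changes of -0.26 (adjusted p 0.184) and -0.20 (adjusted p 0.165). With only the mutant and WT fitted, edgeR called both (adjusted p 0.00301 and 0.00381). Stat3 footprints were 209, 212 and 243.5 CPM in WT and 169, 216 and 223 CPM in P131S, which overlapped (-0.13, adjusted p 0.524). Its footprints per RNA changed by 0.34 in P131S (adjusted p 0.251).

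Ptpn6 (ENSMUSG00000004266, chromosome 6, 124720707 to 124738709), the gene of the phosphatase SHP-1, showed the steepest fall in RNA among the members. WT had 87.5, 70.1 and 71.5 CPM and P131S clones 20, 24 and 63 had 39.0, 50.8 and 37.3 CPM, well separated. H137Y clones had 70.5, 64.2 and 66.3 CPM, overlapping WT. RNA fell by 0.85 in P131S (SE 0.15, to 55.4% of WT, adjusted p 0.0001) and the change in H137Y was -0.19 (adjusted p 0.311). The difference between the mutants was -0.66 (SE 0.15, adjusted p 0.00252), and it and the P131S call were kept in 11 of 11 alternatives each. Rpl11+/- clone 406 had the highest level, 111 CPM, and Rpl22-/- clone 30, at 58.0 CPM, the lowest outside P131S.

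Ptpn6 footprints fell alongside. They were 183.5, 114 and 135 CPM in WT, 85.6, 103 and 71.8 in P131S and 157, 154 and 126 in H137Y. P131S was below WT in each clone, by 0.73 (SE 0.19, 60.3% of WT, adjusted p 0.0104). The call was lost without WT 1 (-0.50, adjusted p 0.109) or P131S 63 (-0.58, adjusted p 0.0733). P131S was also below H137Y (-0.74, adjusted p 0.0278), which was lost without P131S 20 or 63 or H137Y 16 or 2 (adjusted p 0.0867 to 0.133).

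**Figure D4:**
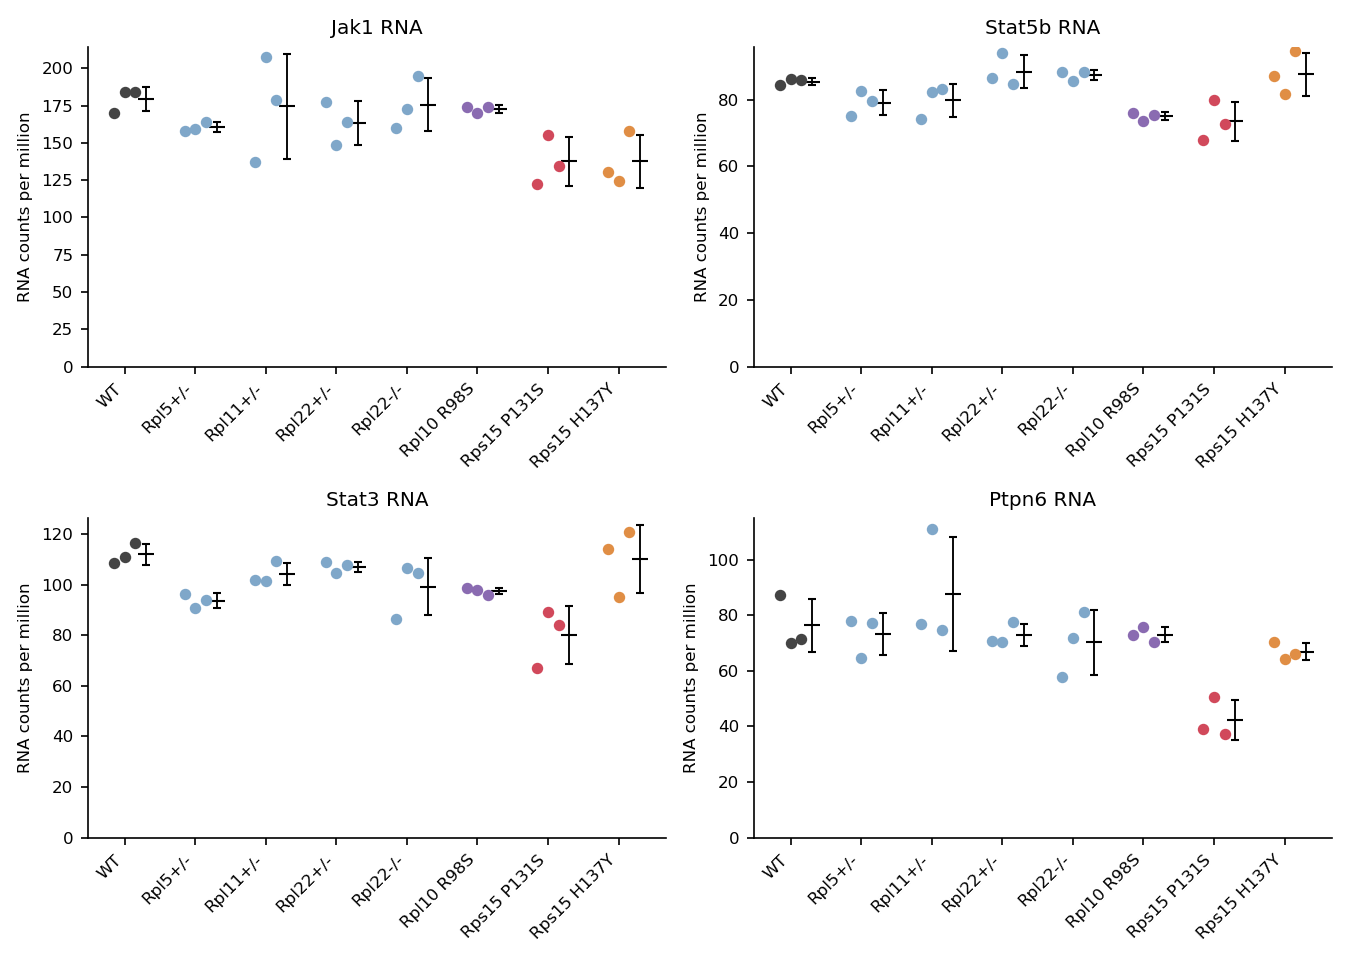
RNA CPM (y axis) of Jak1, Stat5b, Stat3 and Ptpn6 in each clone of the 8 genotypes (points), with mean ± SD over 3 clones. Rps15 P131S clones lie below WT in all 4 panels; Rps15 H137Y clones do so for Jak1 only.

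Of the other JAK and STAT genes 6 were tested. In RNA 1 rose and 1 fell in Rpl10 R98S, beside 6.82% of all genes higher and 6.03% lower. In Rpl11+/- 1 rose (5.73% of all genes higher), in H137Y 1 rose (21%) and in P131S 1 fell (23.4% lower). edgeR called 0 in Rpl5+/- (1.04% called), Rpl22+/- (3.9%) and Rpl22-/- (5.27%), and the DESeq2 test called 1 in each of the last 2. With 6 genes tested, these counts are not read as a result about the list. Jak3, the kinase of receptors with the common gamma chain, rose in H137Y (20.9 ± 0.99 CPM in WT, 32.5 ± 4.21 in H137Y, SD, n = 3; log2 0.64, adjusted p 0.000128) and its footprints rose too (0.84, adjusted p 0.00486). Jak3 was also called higher in Rpl10 R98S (0.43, adjusted p 0.0151, lost without A30 or WT 2) and in Rpl11+/- (0.37, adjusted p 0.0382, lost without Rpl11+/- 22 or 406 or WT 1, 2 or 3), and not in P131S (0.06). Stat2, a STAT of the interferon pathway, fell in Rpl10 R98S (-0.76, adjusted p 0.000502) and in P131S (-0.40, adjusted p 0.00993, lost without P131S 20). Stat2 footprints were also called lower in Rpl10 R98S (-0.57), a call lost without A29 or A30 or WT 1 or 3. Tyk2, Stat4 and Stat6 had no RNA call.

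Other cytokine receptor genes numbered 33, of which 21 were tested. In RNA 1 rose and 6 fell in P131S (median -0.20), 4 rose and 6 fell in H137Y (-0.09), 5 rose and 3 fell in Rpl11+/- (0.21), 2 rose in Rpl10 R98S (0.28) and 1 fell in Rpl22-/- (-0.06). Of all genes, 23.7% were higher and 23.4% lower in P131S, 21% and 20% in H137Y, and 5.73% and 6.05% in Rpl11+/-. In Rpl10 R98S 6.82% were higher, and in Rpl22-/- 3.8% were lower. The 5 rises in Rpl11+/- dropped to 0 without its clone 22, to 2 without clone 406 and to 1 without WT 1 or 2. Ifngr2, the second chain of the interferon gamma receptor, was at 42.4 ± 2.72 CPM in WT and fell in Rpl11+/- (-0.77, adjusted p 0.0001), P131S (-0.63, adjusted p 3.04e-05), H137Y (-0.57, adjusted p 0.000109) and Rpl22-/- (-0.35, adjusted p 0.0392, lost in 6 of 6 fits without 1 clone). Il27ra, a chain of the IL-27 receptor, rose in Rpl10 R98S (0.51, adjusted p 0.00453) and fell in P131S (-0.68, adjusted p 5.03e-05) and H137Y (-0.37, adjusted p 0.0109, lost without H137Y 16 or WT 1). Il2rg, the common gamma chain, rose in Rpl10 R98S (0.47, adjusted p 0.000619) and Rpl11+/- (0.30, adjusted p 0.0164, lost without Rpl11+/- 22 or 406 or WT 1 or 2). Il21r, the IL-21 receptor, fell from a low level of 2.48 CPM to 0.918 in P131S (-1.44, adjusted p 0.00175) and 0.581 in H137Y (-2.09, adjusted p 9.46e-05).

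Of 26 genes listed as inhibitors of the pathway all 26 were tested, and those called in the Rps15 mutants were mostly lower. In P131S 14 fell and 1 rose, with a median of -0.29 (all genes -0.01). In H137Y 14 fell and 1 rose, with a median of -0.27 (all genes 0.01). The gene that rose was Ptpn11 in both, and whether it acts as an inhibitor in these cells was not tested. The background of genes called lower was 23.4% in P131S and 20% in H137Y. The list was chosen with earlier results of these data known, so its counts beside the background are a description only. The same list had 7 falls and 1 rise in Rpl11+/- (of all genes, 6.05% lower and 5.73% higher) and 6 falls in Rpl22+/- (2.82% lower). It had 5 falls and 1 rise in Rpl22-/- (3.8% lower and 1.47% higher) and 5 falls in Rpl10 R98S (6.03% lower). These 4 counts of falls depend on single clones, down to 2 without WT 1 in Rpl11+/-, 1 without clone 16 in Rpl22+/-, 2 without clone 30 in Rpl22-/- and 3 without A29 in Rpl10 R98S. In Rpl5+/- edgeR and limma voom called 0, with 10 at an unadjusted p under 0.05, and DESeq2 called 1. In footprints 12 fell and 1 rose in P131S (6 fell without P131S 20), and 6 fell in H137Y. In footprints of all genes, 8.28% were lower and 8.42% higher in P131S, and 6.44% were lower in H137Y.

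Among them Socs1, a feedback inhibitor of JAK kinases that STAT5 induces, was lower in 6 genotypes. Its RNA was 50.5 ± 3.1 CPM in WT (SD, n = 3). The change was -2.30 in Rpl22-/- (adjusted p 0.000141), -2.02 in Rpl22+/- (0.000477), -1.76 in Rpl11+/- (0.000962), -1.71 in H137Y (0.00012), -1.41 in P131S (0.000491) and -1.30 in Rpl10 R98S (0.00558). Each of the 6 calls was kept in 11 of 11 alternatives, and in Rpl5+/- the change of -0.68 had an adjusted p of 0.243. The same WT samples served every comparison, so the calls of a gene over genotypes are not independent of each other. Pias1, a SUMO ligase that inhibits STAT proteins, fell from 37.9 CPM in WT to 22.3 in P131S (-0.77, adjusted p 2.85e-07) and 25.5 in H137Y (-0.57, adjusted p 8.94e-06). It also fell in Rpl10 R98S (-0.41, adjusted p 0.00169) and Rpl22-/- (-0.40, adjusted p 0.00355), each kept in 11 of 11 alternatives, and was called lower in Rpl22+/- (-0.28, adjusted p 0.0407, lost in 6 of 6 fits without 1 clone) and Rpl11+/- (-0.27, adjusted p 0.0248, lost without clone 406 or 414 or WT 1 or 3). Socs5 fell by 0.93 in P131S (adjusted p 9.31e-06) and by 0.75 in H137Y (adjusted p 9.92e-05). It was also called lower in Rpl22+/- (-0.62, adjusted p 0.00588, lost without clone 16), Rpl22-/- (-0.49, adjusted p 0.0268, lost in 6 of 6 fits without 1 clone) and Rpl11+/- (-0.43, adjusted p 0.0314, lost without clone 22 or WT 1, 2 or 3).

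Spred1, an inhibitor of the Ras pathway, fell more in footprints than in RNA, as Jak2 did. Its RNA was 138 CPM in WT and fell by 0.56 in P131S (adjusted p 2.71e-06) and by 0.23 in H137Y (adjusted p 0.0127, lost without WT 3). It was also called lower in 4 other genotypes, with changes of -0.33 to -0.23 (all but Rpl5+/-), each call lost without at least 1 clone. Footprints went from 16.8 CPM in WT to 3.16 in P131S (-2.41, adjusted p 0.000262) and 5.88 in H137Y (-1.50, adjusted p 0.0101). Footprints per RNA changed by -1.87 in P131S (adjusted p 0.00146, kept in 13 of 13 alternatives) and by -1.27 in H137Y (adjusted p 0.0372, lost in 7 of 13).

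Receptor adaptors and downstream kinases (32 listed, 31 tested) went both ways. In P131S 7 rose and 10 fell in RNA (median -0.06), beside 23.7% of all genes higher and 23.4% lower, and in H137Y 4 rose and 12 fell (-0.12), beside 21% higher and 20% lower. In Rpl10 R98S 2 rose and 6 fell, beside 6.82% and 6.03% of all genes. There 1 fall was left without A30 or WT 3 and 2 without A29 or WT 2. In each of the 6 fits without 1 clone, 1 rise was left. In Rpl11+/- 5 fell (2 without clone 22), beside 6.05% of all genes lower. In Rpl22-/- 4 fell (1 without clone 30, 2 without WT 3), beside 3.8%. In Rpl22+/- 2 fell (0 without clone 13 or WT 3, 1 without clone 16 or 60 or WT 2), beside 2.82%. In Rpl5+/- 1 fell, beside 1.04% of all genes called in either direction. The single fall in Rpl5+/- was Sos1, the exchange factor that activates Ras, which was called lower in all 7 genotypes. From 44.6 ± 3.3 CPM in WT it fell by 0.67 in Rpl11+/- (adjusted p 0.0001), 0.61 in H137Y (1.02e-05), 0.59 in P131S (1.25e-05), 0.49 in Rpl5+/- (0.0162), 0.39 in Rpl22-/- (0.00728), 0.34 in Rpl10 R98S (0.0117) and 0.34 in Rpl22+/- (0.0208). The WT samples are shared by all 7, and without WT 3 the calls in Rpl5+/-, Rpl22+/-, Rpl22-/- and Rpl10 R98S were lost (adjusted p 0.06 to 0.148). The Rpl5+/- call was also lost without clone 68 or 80 or WT 1 or 2, that in Rpl22+/- without clone 13 or 16, that in Rpl22-/- without clone 30 and that in Rpl10 R98S without A30. Pik3ca, a catalytic subunit of phosphoinositide 3-kinase, fell by 0.41 in P131S (adjusted p 6.16e-06), by 0.28 in Rpl11+/- (adjusted p 0.00291) and by 0.22 in H137Y (adjusted p 0.00333), each kept in 11 of 11 alternatives. It was also called lower in Rpl22-/- (-0.22, adjusted p 0.0217, lost without clone 30 or WT 2 or 3) and Rpl10 R98S (-0.19, adjusted p 0.0265, lost without A29 or A30 or WT 2 or 3).

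Of 20 genes listed as STAT5 targets, 18 were tested. In P131S 8 fell and 2 rose (Gzmb and Osm) in RNA (median -0.22), beside 23.4% of all genes lower and 23.7% higher. In H137Y 7 fell and 1 rose (Ccnd3; median -0.14), beside 20% of all genes lower and 21% higher. Cish, Socs1, Socs2 and Socs3 stand both here and among the inhibitors. Of these, Cish and Socs1 fell in each Rps15 mutant, and Socs2 and Socs3 were called in neither. Socs2 rose in Rpl22-/- and is counted there in both lists. Elsewhere 3 fell in Rpl22+/- (1 in each of the 6 fits without 1 clone), 2 fell in Rpl22-/- (1 without clone 30 or 776 or WT 1, 2 or 3) and 2 rose there (0 without clone 776 or WT 2 or 3, and 1 without clone 30 or 649 or WT 1). Of all genes, 2.82% were lower in Rpl22+/-, and 3.8% lower and 1.47% higher in Rpl22-/-. In Rpl11+/- 1 fell and 1 rose (all genes 6.05% and 5.73%), and in Rpl10 R98S 1 fell (all genes 6.03%). edgeR and limma voom called 0 in Rpl5+/-, where 5 had an unadjusted p under 0.05, and DESeq2 called 1.

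Pim2, a survival kinase, had the steepest fall of the named targets: 415 ± 33 CPM in WT, 57.0 ± 29.2 in P131S and 69.8 ± 2.81 in H137Y (SD, n = 3). RNA fell by 2.87 (adjusted p 1.99e-06) and by 2.57 (adjusted p 6.31e-06), and footprints by 2.93 (adjusted p 5.84e-06) and by 2.41 (adjusted p 3.52e-05). Myc, a growth regulator, fell by 0.97 in P131S (adjusted p 0.000263) and by 0.48 in H137Y (adjusted p 0.0389, lost without H137Y 16 or 2 or WT 1, 2 or 3). Id1, an inhibitor of basic helix-loop-helix factors, fell by 1.44 in P131S (adjusted p 0.00143, lost with only the 2 genotypes fitted) and by 0.95 in H137Y (adjusted p 0.022, lost without H137Y 2 or WT 2). Myc was also called lower in Rpl22+/- (-0.69, adjusted p 0.0371, lost in 6 of 6 fits without 1 clone) and Rpl22-/- (-0.71, adjusted p 0.0237, lost without clone 30 or 776 or WT 1, 2 or 3), and Id1 in Rpl22+/- (-1.16, adjusted p 0.049, lost in 6 of 6).

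**Figure D5:**
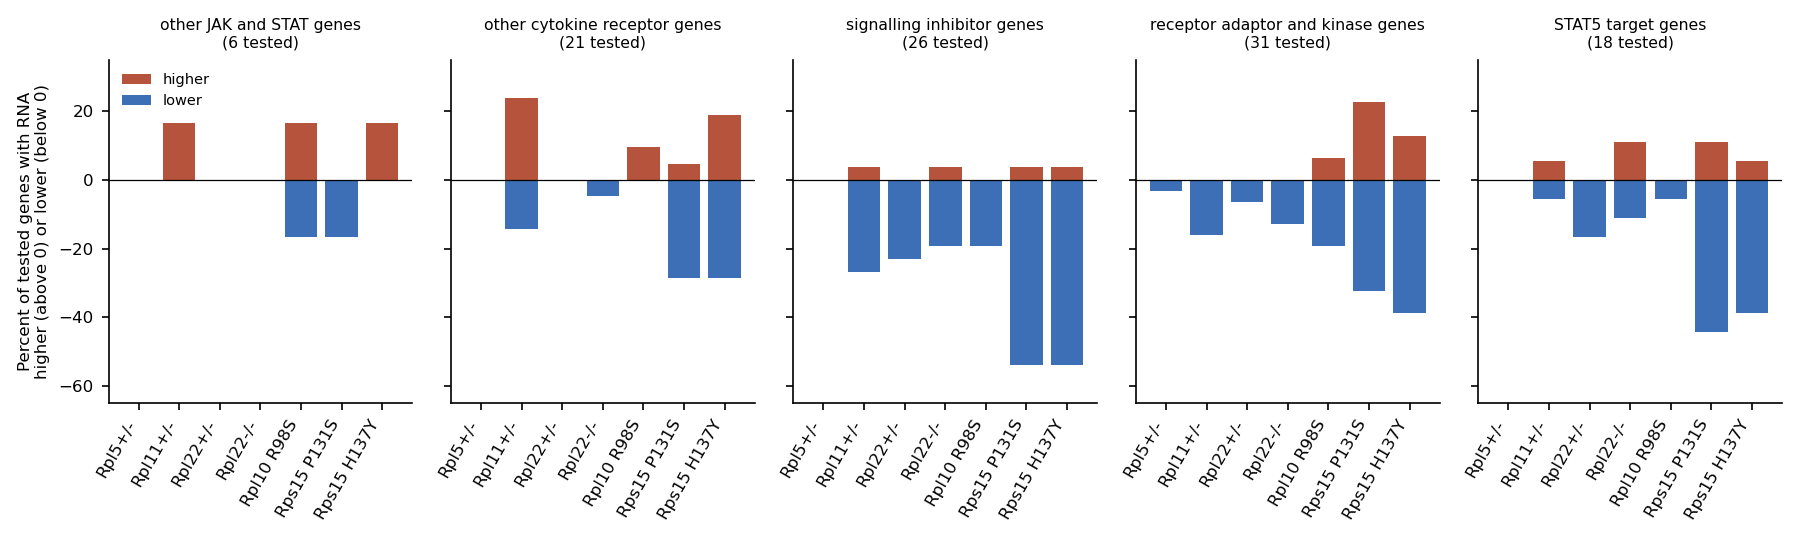
Percent of tested genes called higher or lower in RNA (y axis) in each of the 5 pathway lists, by genotype against WT. The inhibitor list has its largest bars for lower genes in the Rps15 genotypes, where 14 of 26 fell in each. Of all genes, 23.4% were lower in P131S and 20% in H137Y. The lists were chosen with earlier results of these data known.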

How the data were processed

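Whole-series tables of 48 libraries held estimated counts per gene, deposited by the authors; values were not whole for genes with shared reads and were rounded. The submitters' processing notes name STAR 2.6.1d, Salmon 1.4.0, DESeq2 1.30 and GRCm38, without their roles. Gene symbols came from the table (32115) or, matched by Ensembl identifier, from a reference list of gene names (23112), and 260 genes had none. Groups and clones follow the sample labels.

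RNA and footprints were each fitted over all 24 libraries with edgeR 4.0.16 (R 4.3.3): TMM scaling, filterByExpr by genotype and the robust quasi-likelihood test, two-sided. Footprints per RNA is the interaction of assay and genotype over 48 libraries. Adjusted p is Benjamini-Hochberg over all genes tested, with a threshold of 0.05, and SE is the log2 change over the square root of F. There were 9 comparisons: 7 mutants with WT, the 2 Rpl22 genotypes and the 2 Rps15 mutants. With 3 clones a group, an exact permutation test cannot go below 0.1, so none was used.

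Alternatives were DESeq2 size factors, no filter, limma voom (limma 3.58.1), the DESeq2 test (DESeq2 1.42.0), a fit of only the 2 genotypes, each clone left out, clone as replicate block (footprints per RNA) and the sum of both beta genes. A fit without Rpl22+/- clone 60 was added after seeing the data. The RNA and footprint libraries of a clone come from 1 lysate. Over 8441 genes, the deviations of same-clone libraries from their genotype mean correlated at 0.226 to 0.696, above 0.1 in 24 of 24 clones. Those of other clones of the genotype correlated at -0.601 to 0.054. Taking deviations from the genotype mean lowers the other-clone values by itself, so they are no independent contrast.

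All 10 members are described. Other genes are, per list, up to 4 called in RNA in most comparisons with WT (ties by adjusted p) and the other JAK and STAT genes, of which 1 is not reported here; the most alike genes are the 3 with the highest correlation over RNA libraries. Members and lists were chosen with earlier results of these data known. The fits were tested on simulated data. Totals of 13029073 counts or more limit low genes such as Jak2 footprints and Csf2ra; floors cover counting error only. Transcript lengths were not used here, so levels of different genes are not compared.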

Additional observations from a re-analysis of the deposited data

Results flagged for a closer look

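Jak2 footprints per RNA stood out as an effect of genotype that differed between the 2 assays of the same clones. The interaction of assay and genotype was -1.95 on the log2 scale in Rps15 P131S (edgeR adjusted p 0.000554) and -1.38 in Rps15 H137Y (adjusted p 0.0139), with 3 of 3 clones below WT in each. The P131S call was kept in 13 of 13 alternatives, and the H137Y call was lost in 4 of 6 fits without 1 clone (without H137Y 6 or WT 1, 2 or 3; adjusted p 0.0587 to 0.102). Jak2 RNA changed by -0.02 and 0.02 in these genotypes. The same ratio in the other genotypes ran from -0.32 in Rpl5+/- to -1.39 in Rpl22+/-, with no call by edgeR. Other fits called it in Rpl10 R98S (limma voom, adjusted p 0.0118; DESeq2, 0.00691; clone as replicate block, 0.0466; only the 2 genotypes, 0.00165; without Rpl22+/- clone 60, 0.0164) and in Rpl22+/- (DESeq2, 0.00725; without clone 16, 0.00703).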

How the results depend on the processing

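The numbers of called members that moved by more than 1.5 times are these, and the cause was not tested except where fewer samples set the spread. With only the 2 genotypes fitted, RNA gave 4 in Rpl5+/- (0 in the shared fit), 3 in Rpl10 R98S (0) and 1 between the Rps15 mutants (4); footprints gave 1 in H137Y (3) and 0 between the Rps15 mutants (2). The DESeq2 test gave 1 in RNA of Rpl10 R98S, 2 in footprints of Rpl22+/- (0), 1 in footprints between the Rpl22 genotypes (0) and 1 in footprints per RNA of Rpl22+/- (0). Without a filter on low counts, footprints gave 1 in Rpl22+/- and 1 in H137Y. For footprints per RNA in Rpl10 R98S, 1 was called (0 in the shared fit) with clone as replicate block, and likewise by limma voom, by DESeq2, with only the 2 genotypes and without Rpl22+/- clone 60; the gene was Jak2. The replicate block changed no other call of a member.

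Without 1 clone, the RNA counts ran from 0 to 1 in Rpl11+/-, 4 to 6 in P131S, 2 to 3 in H137Y and 3 to 5 between the Rps15 mutants. Footprint counts ran from 0 to 1 in Rpl22+/-, were 0 in each fit in Rpl10 R98S, and ran from 3 to 4 in P131S, 0 to 2 in H137Y and 0 to 2 between the Rps15 mutants. Those of footprints per RNA ran from 0 to 1 in Rpl22+/- and in H137Y. No called member changed direction.

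Over all genes, the number called in RNA was between 1 and 1868 in Rpl5+/-, between 598 and 2184 in Rpl11+/-, from 211 up to 1248 for Rpl22+/-, 319 up to 1436 for Rpl22-/-, 791 up to 4216 for Rpl10 R98S and 378 to 3630 between the Rps15 mutants. In P131S the range was 5017 to 6112 in RNA, 1591 to 3397 in footprints and 218 to 914 in footprints per RNA; in H137Y it was 4208 to 5412, 1092 to 2570 and 184 to 765. Footprint calls over all genes lay between 0 and 46 in Rpl5+/-, 2 and 240 in Rpl11+/-, 3 and 406 in Rpl22+/-, 6 and 146 in Rpl22-/-, 50 and 738 in Rpl10 R98S, and 34 and 1309 between the Rps15 mutants. DESeq2 size factors moved the median of all genes by at most 0.035 log2 units. Depth limits Jak2 footprints, at 27 to 869 counts, and Csf2ra.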
